A study of Homo sapiens with 4 samples.

Results

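Regulators of cyclic AMP (cAMP) and G-protein signalling were described in T47D, a cell line from a human breast cancer in which the progesterone receptor (PR) is expressed. The genes were picked by their symbols, as those named as phosphodiesterases (PDE), adenylyl cyclases (ADCY), regulators of G-protein signalling (RGS), A-kinase anchoring proteins (AKAP), subunits of protein kinase A (PRKAC and PRKAR) or subunits of heterotrimeric G proteins (GNA, GNB1 to GNB5 and GNG). The naming rule fitted 114 members out of 23287 gene symbols. RNA-seq compared cells kept in charcoal-stripped serum and treated for 3 h with 10 nM R5020, a synthetic progestin, with cells given the vehicle ethanol (EtOH) for 3 h. PR binding sites came from ChIP-seq of cells treated with 10 nM R5020 for 1 h, so they were measured earlier than the RNA and hold no vehicle counterpart. The ChIP cells had also been kept in charcoal-stripped serum for longer before harvest than the RNA cells. All libraries came from the same line, with 1 library per condition, so no difference below has a replicate check in these libraries and none was tested here.

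Hormones and other ligands bind receptors that hand their signal to heterotrimeric G proteins. Alpha subunits of the Gs class stimulate adenylyl cyclases, which make cAMP, and those of the Gi class inhibit them, while Gq subunits act on phospholipase C and G12 subunits form a further class. RGS proteins shorten the signal by speeding GTP hydrolysis on the alpha subunit, PDEs degrade cyclic nucleotides, and cAMP frees the catalytic subunits of protein kinase A (PKA) from their regulatory subunits at places set by the AKAPs. In mammary cells, cAMP is known to act together with steroid receptors, PR among them.

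Levels are FPKM, fragment counts divided by transcript length and by library total, summed over the transcripts of a gene. The change of a gene is log2((R5020 FPKM + 1) / (EtOH FPKM + 1)), which understates the change of genes at low FPKM. A gene was retained when its FPKM was 1 or more in at least 1 library, and a gene is called higher or lower where the change was at least 1.5-fold, that is 0.585 on the log2 scale. Coverage times transcript length over a read length of 50 nt came to 35151493 reads in EtOH and 36203604 in R5020. These figures describe the reads behind the listed transcripts and are not the authors' library totals, which differ from them in size and in which library is deeper. In bulk RNA of this kind, fewer cells with a transcript and less of it per cell cannot be told apart. Of the 7 luminal markers, the 5 with an estimate in both libraries (ESR1, PGR, GATA3, FOXA1 and KRT19) summed to 967 FPKM in EtOH and 644 in R5020, whereas KRT8 and KRT18 were listed at 0 in EtOH with a failed estimate and at 285 and 174 in R5020. The basal or mesenchymal markers KRT5, KRT14, TP63 and VIM reached 0.527 FPKM at most, and the immune and endothelial markers PTPRC, CD3E, PECAM1 and CDH5 reached 0.315. The part of the lower luminal sum in the results below was not tested.

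Of the 114 members, 45 were retained and 69 were not. None of the latter went above 0.723 FPKM in either library, and 16 of them were listed at 0 in both. All 271 transcripts of the members had an estimate that the authors' program marked as OK in both libraries. In R5020, 6 of the 45 retained members (13.3%) were higher, PDE5A, AKAP13, PRKAR1B, GNA12, RGS10 and GNB4, beside 7.67% of the 11018 retained genes. There were 3 lower members (6.67%), RGS3, GNAI1 and PDE4DIP, beside 4.14% of the retained genes. With so few genes the shares are imprecise, as the Wilson 95% intervals ran from 6.26% to 26.2% for the higher and from 2.29% to 17.9% for the lower members, and both intervals hold the background share. These intervals cover counting error only. PDE5A and PRKAR1B reached FPKM 1 only in R5020, and GNAI1 only in EtOH, so the library where each was high made it retained. With FPKM of 1 or more in both libraries, 4 of 40 members (10%) were higher, beside 6.47% of genes. In that setting 2 (5%) were lower, beside 2.92%. The median change of the 45 members was 0.002 on the log2 scale, beside 0.005 over all retained genes, and 23 members lay above 0 and 22 below it. The change of FPKM + 1 was at most 10% for 21 members (46.7%), beside 40.1% of the retained genes. The called members were single genes of several classes, and the classes are taken in turn below.

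**Figure D1:**
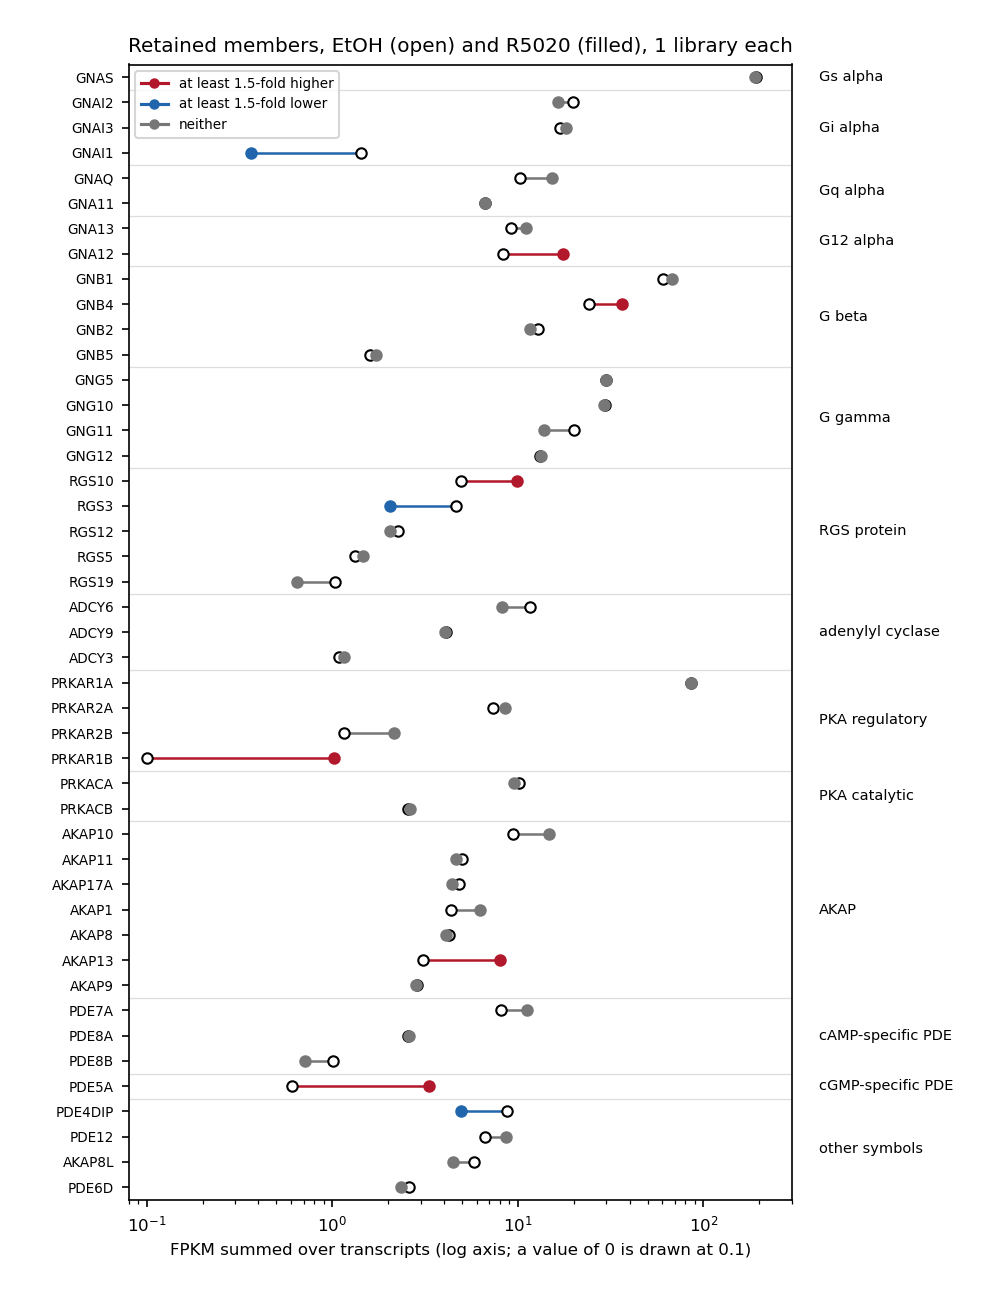
FPKM summed over transcripts (log axis) of the 45 retained members in EtOH (open circles) and R5020 (filled circles), grouped by role, with 1 library per condition and no error bars. GNAS and PRKAR1A lie far to the right with their circles on top of each other, whereas the 6 higher (red) and 3 lower (blue) members are spread over the classes, most of them under 20 FPKM and PRKAR1B at 0 in EtOH.

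Among the alpha subunits of G proteins, GNAS, which encodes the stimulatory subunit Gs alpha, was by far the most abundant. It stood at 191 FPKM in EtOH and 189 in R5020, was 82nd of all genes by FPKM in EtOH, and made up 72.2% of the summed FPKM of the 16 alpha subunit genes in EtOH and 68.6% in R5020. GNAL, the other subunit of this class, was not retained, with 0.126 and 0.165 FPKM. The inhibitory subunits summed to 38.7 FPKM in EtOH and 35.6 in R5020. GNAI2 was the highest of them, at 19.9 FPKM in EtOH and 16.5 in R5020, a change of -0.25, and GNAI3 followed at 16.8 and 18.2. GNAI1, the third subunit of the same kind, was lower in R5020, at 1.44 FPKM in EtOH and 0.366 in R5020. Its change was -0.83, and its coverage corresponded to 418 and 110 reads. GNAI1 was the least abundant retained Gi subunit, and the change of the class total, -7.89%, came mostly from GNAI2.

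The remaining alpha subunits were present at intermediate levels. GNA12, of the G12 class, had 8.33 FPKM in EtOH and 17.5 in R5020, a change of 0.99. Its only transcript had a FPKM outside the interval deposited with it in both libraries, 5.39 to 6.32 in EtOH and 11.5 to 12.8 in R5020, and the midpoints of these intervals gave a change of 0.94. GNA13, the other subunit of the G12 class, was at 9.23 and 11.1 FPKM, a change of 0.24. In EtOH the G12 class thus held slightly more GNA13 than GNA12, and in R5020 it held more GNA12. GNAQ, a Gq subunit that activates phospholipase C, was at 10.3 FPKM in EtOH and 15.2 in R5020, and its change of 0.52 stayed under the threshold. GNA11, the closely related Gq subunit, was at 6.64 and 6.62 FPKM.

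Beta and gamma subunits form the dimer that accompanies the alpha subunit. GNB1 was the most abundant beta subunit, at 60.4 FPKM in EtOH and 67.4 in R5020, a change of 0.16. GNB4 was at 24.0 FPKM in EtOH and 36.6 in R5020. Its change of 0.586 lay just inside the threshold, it went to 0.574 once R5020 was rescaled by the median ratio, and to 0.554 with the midpoints of the FPKM intervals, so that its call depends on the scaling. The share of GNB4 in the beta subunit FPKM was 24.3% in EtOH and 31.2% in R5020. These shares are uncertain, since GNB1, GNB2 and GNB4 had a FPKM outside the deposited interval in both libraries. For GNB1 the interval was 39.6 to 42.6 in EtOH and 44.5 to 47.8 in R5020. No gamma subunit passed the threshold. GNG5, the highest, stood at 29.8 and 29.7 FPKM, GNG10 at 29.3 and 29.0, and the nearest to a call was GNG11, with 20.0 FPKM in EtOH, 13.8 in R5020 and a change of -0.50.

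Of 21 genes for RGS proteins, 5 were retained, and those with the highest levels in EtOH differed in opposite directions. RGS10, a small RGS protein that acts on Gi subunits, was at 4.93 FPKM in EtOH and 9.84 in R5020. The change was 0.87, with coverage equal to 435 and 825 reads, all of it on the same transcript (NM_001005339). RGS3, which acts on Gi and Gq subunits, was at 4.63 FPKM in EtOH and 2.05 in R5020, a change of -0.88. In EtOH the values of RGS10 and RGS3 were close to each other, while in R5020 RGS10 was well above RGS3. The lower value of RGS3 was spread over several transcripts. NM_017790 went from 1.84 to 1.01 FPKM, NM_130795 from 1.56 to 1.04, and NM_021106 and NM_144488 from 0.852 and 0.372 to a listed 0. Taking its highest transcript instead of the sum, its change was -0.50, under the threshold. The other retained members, RGS12, RGS5 and RGS19, were under 2.3 FPKM in both libraries and none of them was called. RGS19, at 1.03 FPKM in EtOH and 0.647 in R5020, had a change of -0.30, but with a pseudocount of 0.1 it was called lower (-0.59).

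Of the 10 adenylyl cyclases, 3 were retained and none was called. ADCY6, a cyclase that Gi and calcium inhibit, had 11.6 FPKM in EtOH and 8.19 in R5020, a change of -0.45. It made up 67.1% of the cyclase FPKM in EtOH and 59.2% in R5020, and the class total was 17.3 and 13.8 FPKM. ADCY9 stood at 4.10 and 4.03 FPKM, and ADCY3 at 1.09 and 1.16. The lower FPKM of ADCY6 came from its transcript NM_015270, at 9.61 in EtOH and 6.04 in R5020, a change of -0.59 that passed the threshold for a transcript. NM_020983 was at 1.99 and 2.15.

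PKA showed little difference in its main subunits. PRKAR1A, the regulatory subunit that restrains the kinase in most tissues, was at 85.5 FPKM in EtOH and 85.7 in R5020 and held 91.0% and 88.0% of the regulatory subunit FPKM. PRKACA, the main catalytic subunit, was at 10.2 and 9.57 FPKM. PRKAR2B and PRKAR1B, less abundant regulatory subunits, both had a higher FPKM in R5020, but of these only PRKAR1B was called. PRKAR2B went from 1.16 FPKM in EtOH to 2.15 in R5020, which is 1.85-fold without the pseudocount and 0.54 on the scale used here. With a pseudocount of 0.1 it was called (0.84). PRKAR1B, a regulatory subunit best known from brain, was listed at 0 in EtOH and at 1.02 FPKM in R5020, all from NM_001164760 and with coverage equal to 226 reads. No fold of FPKM itself is given against a listed 0, since KRT8 and KRT18 show that a 0 in EtOH can be a failed estimate. The estimate for PRKAR1B was not marked as failed. Its change of 1.01 on FPKM + 1 rests on the pseudocount. The gene shares 977 bp with HEATR2, which stood at 5.87 and 5.63 FPKM. Without PRKAR1B, 5 higher members remain.

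AKAPs tether PKA to membranes and organelles, and 7 of the 15 AKAP genes were retained. AKAP13, a large anchoring protein, was at 3.07 FPKM in EtOH and 8.06 in R5020. Its change was 1.15, and its coverage of 3327 and 8863 reads was the deepest among the called members that lay under 5 FPKM in EtOH. Each of its transcripts had a higher FPKM in R5020, NM_007200 with 1.35 and 4.32, NM_006738 with 0.708 and 1.96, and NM_144767 with 1.01 and 1.78. The change of NM_144767 (0.46) stayed under the threshold. The authors also assayed AKAP13 by RT-qPCR after 3 h in biological replicates and reported significant up-regulation. By ChIP-qPCR they reported increased PR binding after progestin at a distal intergenic site upstream of the gene. They also found that site enriched for a histone methylation that marks enhancers and promoters. By its position, it is the upstream AKAP13 site described below. AKAP10, the highest AKAP in EtOH, was at 9.46 FPKM there and 14.6 in R5020. Its change of 0.579 lay just outside the threshold, so AKAP10 and GNB4 fell on either side of it with nearly equal values. Without the pseudocount AKAP10 was 1.55-fold and GNB4 1.52-fold higher, and with a pseudocount of 0.1 AKAP10 was called (0.62). AKAP1, which binds the outer mitochondrial membrane, was not called as a gene (4.37 and 6.22 FPKM, 0.43), but its transcripts moved apart. NM_003488 was at 2.36 FPKM in EtOH and 6.22 in R5020, whereas NM_001242902 was at 2.02 in EtOH and listed at 0 in R5020. The other retained AKAPs, AKAP8, AKAP9, AKAP11 and AKAP17A, had changes between -0.10 and -0.01.

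Only 4 of the 23 PDE genes that encode subunits of cyclic nucleotide phosphodiesterases were retained. PDE7A, which is specific for cAMP, was the highest in both libraries, with 8.09 FPKM in EtOH and 11.2 in R5020, a change of 0.42. It made up 65.0% of the FPKM of the cAMP-specific PDEs in EtOH and 74.1% in R5020. PDE8A, also specific for cAMP, stood at 2.55 and 2.59 FPKM, and PDE8B at 1.003 and 0.716. None of the PDE4 genes, well-known cAMP-specific enzymes, was retained, nor any of the 8 genes whose enzymes degrade both cAMP and cGMP. PDE5A, which degrades cGMP, had the largest change of the members on this scale with summed transcripts, 1.42, with 0.605 FPKM in EtOH and 3.30 in R5020. In R5020 it thus passed PDE8A, whereas in EtOH it was below it.

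The value of PDE5A rests on its transcripts and on its neighbourhood. NM_001083 was at 0.605 FPKM in EtOH and 1.56 in R5020, and NM_033430 was listed at 0 in EtOH and at 1.747 in R5020. With the single transcript of the highest FPKM over both libraries the change was 0.67, which passed the threshold. The coverage corresponded to 395 reads in EtOH and 2106 in R5020. The last 5199 bp of the gene are shared with the noncoding gene LOC645513, which was at 3.56 FPKM in EtOH (349 reads) and listed at 0 in R5020. Reads in the shared stretch could have been given to either gene, and the part of this in the PDE5A values was not tested.

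Some symbols fit the naming rule without belonging to the function. PDE4DIP is a protein of the Golgi and centrosome that was named for binding a PDE4 enzyme. It was at 8.74 FPKM in EtOH and 4.92 in R5020, a change of -0.72. Its 2 expressed transcripts both had a lower FPKM in R5020 (NM_001002811 at 6.53 and 3.57, NM_001198832 at 2.21 and 1.35), but only NM_001002811 passed the threshold. The FPKM of NM_001002811 lay outside its deposited interval in both libraries, and interval midpoints gave the gene a change of -0.78. The annotation holds 7 pseudogene copies of the gene, and since the authors kept unique alignments, its FPKM is uncertain where the copies are near-identical. PDE12, an exonuclease of mitochondrial RNA, was at 6.64 and 8.68 FPKM, PDE6D, a carrier of prenylated proteins, at 2.58 and 2.36, and AKAP8L, a nuclear relative of AKAP8, at 5.84 and 4.498. Without these, 41 members were retained, of which 6 were higher and 2 lower.

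At the level of transcripts, 57 of the members' transcripts were retained. There were 11 higher (19.3%), beside 11.3% of the 13625 retained transcripts, and 4 lower (7.02%), beside 8.34%. In 4 members a transcript passed 1.5-fold although the gene did not, which were ADCY6, AKAP1, PDE7A and PRKACB. For PDE7A the transcript was NM_002603, listed at 0 in EtOH and at 1.14 FPKM in R5020, next to NM_001242318 at 8.09 and 10.0. For PRKACB, a catalytic subunit of PKA, NM_182948 was at 0.428 FPKM in EtOH and 1.19 in R5020, while NM_002731 was at 2.14 and 1.42, so that the sum stood at 2.57 and 2.61. The assignment of reads among transcripts of a gene is an estimate by Cufflinks. In 18 of the 51 member transcripts at FPKM 1 or more in EtOH, and in 16 of 54 in R5020, the FPKM lay outside its own deposited interval.

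**Figure D2:**
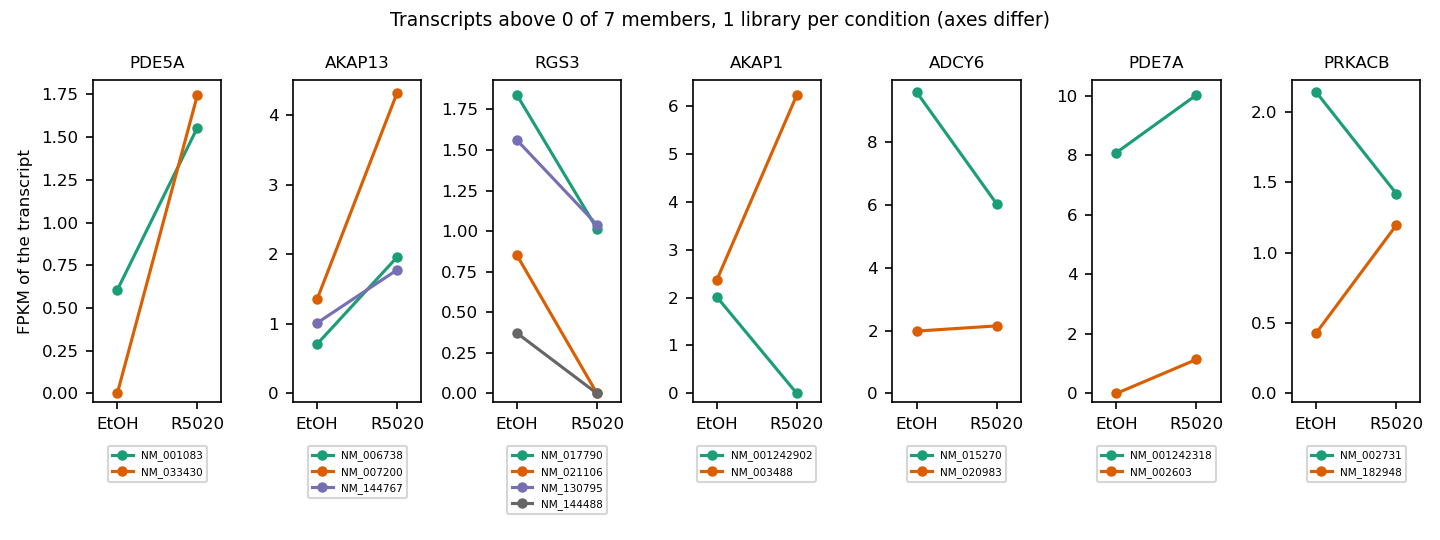
FPKM of every transcript above 0 in either library for 7 members, in EtOH and R5020, with 1 library per condition, no error bars and a separate axis for each gene. The AKAP13 lines all go up and the RGS3 lines all go down. In AKAP1 the lines move apart, and in PRKACB they approach each other.

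PR binding was set beside these values. A PR site lay in or within 50 kb of 25 of the 45 retained members (55.6%, Wilson 95% interval 41.2% to 69.1%), beside 52.7% of the retained genes. In the gene itself a site was found for 15 members (33.3%), beside 22.5% of the retained genes. The members are long, with a median extent of 71.5 kb beside 26.8 kb. Among genes over 50 kb, 13 of 26 members and 32.3% of the retained genes had a site in the gene, and among shorter genes 2 of 19 members (10.5%) and 18.1% of genes did. With the 50 kb around the gene included, 16 of the 26 longer members (61.5%) and 51.6% of the longer genes had a site, and for shorter genes it was 9 of 19 members (47.4%) and 53.2% of genes. Of the 69 members that were not retained, 33 (47.8%) had a site, beside 39.2% of the genes that were not retained. The Wilson 95% interval of that share of members ran from 36.5% to 59.4%.

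Among the called members, 4 of the 6 higher, all 3 lower and 18 of the 36 others had a site within 50 kb. Over all retained genes these shares were 61.4%, 61.0% and 51.5%. The counts of members are too small to set apart from these. PRKAR1B had 13 sites, 12 of them inside its 178 kb extent and the highest with a score of 145, where the score is −10 log10 of the p-value of the peak caller. That is the highest count among the members, but per 100 kb of the gene and the 50 kb on each side PRKAR1B, at 4.67 sites, came after RGS11 (6.51), PDE6B (5.51) and GNAT1 (4.71), none of which was retained. GNA12 had 6 sites, 3 of them inside the gene and the highest at 130, AKAP13 had 2, and RGS3 had 3, all in the gene, the highest at 113. GNAI1 had 1 intronic site of score 61.0 and PDE4DIP 2 of at most 55.9, near the minimum of 50. GNB4 had a site of score 95.4 that lay 0.225 kb downstream of its start, in an annotated UTR. PDE5A and RGS10 had none, with the nearest sites 3086 kb and 116 kb away.

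The scores near the members were those of an average site. The 70 distinct sites near retained members had a median score of 74.9, beside 74.5 for all 11181 sites, and 14 of them (20.0%) reached 100, beside 16.3% of all sites. By position, 41 lay in introns, 14 between genes, 9 in exons and 6 in UTRs, and 4 lay within 1 kb of an annotated start of the member (GNB4, PDE4DIP, RGS5 and GNAS). The GNAS start is that of NM_080425, which was listed at 0 in both libraries. The GNAS transcripts above 0 start elsewhere, farther from the site. The highest-scoring site near any member was at 718, 16.3 kb from AKAP2, which was not retained (0.318 and 0.427 FPKM). It was followed by a site of 328 near AKAP13, of 250 near ADCY9, of 213 near PDE6B and of 195 near GNG13. PDE6B, a photoreceptor PDE, was at 0.129 FPKM in EtOH and not retained, and GNG13, a gamma subunit of taste cells, was listed at 0 in both libraries. ADCY9 was at 4.10 and 4.03 FPKM with 5 sites within 50 kb, so that of these 5 members AKAP13 alone was called. At the edge of the 50 kb limit, the nearest sites of AKAP8 and AKAP13's strongest site lay just inside it, at 49.1 kb and 49.0 kb, and the nearest site of PRKAR1A lay just outside, at 54.4 kb.

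**Figure D3:**
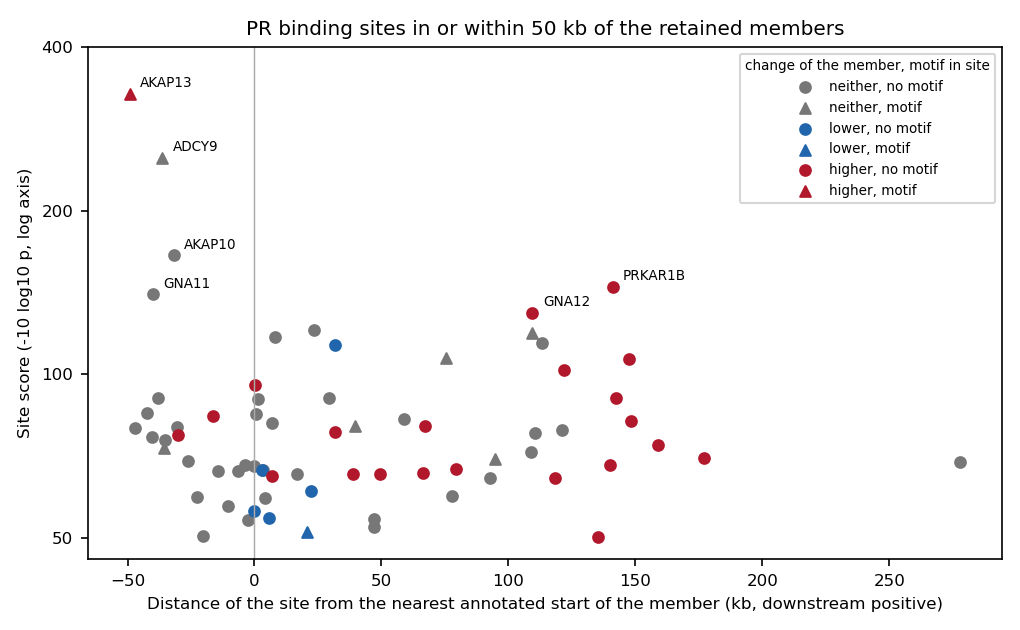
Score (log axis) of the PR sites in or within 50 kb of the retained members against the distance from the nearest annotated start of the member (kb, downstream positive), coloured by the change of the member, with triangles for sites that hold ACANNNTGT. The strongest sites lie 49.2 kb upstream of AKAP13 and 36.4 kb upstream of ADCY9, and the red points between 0 and 177 kb downstream are mostly those of PRKAR1B and GNA12.

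The highest-scoring sites near the called members are printed to show whether the PR element was readable in them. PR binds an imperfect palindrome whose core is ACANNNTGT, and its half-site is TGTTCT or, on the other strand, AGAACA. Shown are the central 300 bases of each site (185 for RGS3, the whole site), from the plus strand of hg19 in lower case, with matches to these motifs in capitals. They come from chr15:85874518-85874817 between genes upstream of AKAP13, chr7:610936-611235 in an intron of PRKAR1B, chr7:2774323-2774622 in an intron of GNA12 that also lies in AMZ1, chr9:116295343-116295527 in an intron of RGS3 and chr7:79787378-79787677 in an intron of GNAI1.
AKAP13: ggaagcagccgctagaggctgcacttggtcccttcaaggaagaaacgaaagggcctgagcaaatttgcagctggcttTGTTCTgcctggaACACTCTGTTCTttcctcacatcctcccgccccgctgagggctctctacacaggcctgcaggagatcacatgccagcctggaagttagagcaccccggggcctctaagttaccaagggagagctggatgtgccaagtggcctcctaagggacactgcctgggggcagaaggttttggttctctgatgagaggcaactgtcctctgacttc
PRKAR1B: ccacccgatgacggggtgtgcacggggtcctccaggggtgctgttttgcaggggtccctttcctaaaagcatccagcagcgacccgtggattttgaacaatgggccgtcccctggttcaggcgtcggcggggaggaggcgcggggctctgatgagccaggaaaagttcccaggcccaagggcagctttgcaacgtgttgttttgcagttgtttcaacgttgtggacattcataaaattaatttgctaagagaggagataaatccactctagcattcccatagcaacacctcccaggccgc
GNA12: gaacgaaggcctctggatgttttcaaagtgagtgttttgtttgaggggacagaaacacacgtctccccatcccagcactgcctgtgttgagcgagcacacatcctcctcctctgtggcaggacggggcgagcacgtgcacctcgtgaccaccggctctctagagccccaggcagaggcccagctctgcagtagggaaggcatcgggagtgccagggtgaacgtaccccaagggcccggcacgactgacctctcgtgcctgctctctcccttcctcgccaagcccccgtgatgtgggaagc
RGS3: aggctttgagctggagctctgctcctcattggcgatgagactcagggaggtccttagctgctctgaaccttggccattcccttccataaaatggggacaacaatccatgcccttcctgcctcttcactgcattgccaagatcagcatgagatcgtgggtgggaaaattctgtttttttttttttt
GNAI1: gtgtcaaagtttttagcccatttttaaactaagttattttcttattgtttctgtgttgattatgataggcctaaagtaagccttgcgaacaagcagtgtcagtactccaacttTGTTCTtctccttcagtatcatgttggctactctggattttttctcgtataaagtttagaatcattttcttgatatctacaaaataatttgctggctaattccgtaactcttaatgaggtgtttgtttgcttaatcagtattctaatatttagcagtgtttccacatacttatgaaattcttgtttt

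The AKAP13 site was the only one of these with the core palindrome. Its match runs into a half-site (ACACTCTGTTCT), and a further half-site stands 7 bases before it. The core with GA directly before it and TC directly after it, in which both half-sites are nearly complete, was found in this site, in 21 of 11178 sites in all (0.188%) and in 3 of as many windows moved by 5 kb (0.0268%), and no other site near a retained member held it. The flanks GA and TC are the bases of the AKAP13 site itself and were not planned. The match there was thus fixed by their choice, and these counts only describe how rare the string is. The GNAI1 window held 1 half-site, and those of PRKAR1B, GNA12 and RGS3 held neither motif. The core ACANNNTGT was present in 8 of the 70 sites near retained members (11.4%), in 11.6% of all sites and in 11.4% of the moved windows, so that over all scores it was no more common in sites than beside them. Among sites with a score of 100 or more the shares were 4 of 14 near members and 19.6% of all sites. The half-site was in 15 of the 70 sites (21.4%), in 25.2% of all sites and in 27.4% of the moved windows. A match to these letters is a description of the window and not a bound base, and no match says only that these letters are not in the window.

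A list of 71 further genes of the pathway, among them receptors, receptor kinases, arrestins, effectors and targets of the cAMP-responsive factor CREB, was examined in the same way. Of these, 37 were retained, 7 were higher (18.9%), beside 7.67% of the retained genes, and none was lower, beside 4.14%, with a median change of 0.05. The list was chosen with earlier results of these data known, so these shares cannot be weighed against the background. CXCR4 and SIK1 reached FPKM 1 only in R5020. With FPKM of 1 or more in both libraries, 5 of 31 (16.1%) were higher, beside 6.47% of genes. GPSM2, which binds Gi alpha subunits without a receptor, was the most changed, from 5.96 FPKM in EtOH to 37.1 in R5020 (2.45 on the log2 scale). Receptors were represented by F2RL1, a protease-activated receptor, at 1.36 and 2.99 FPKM, and CXCR4, a chemokine receptor that signals through Gi, at 0.561 and 1.53. ARRB1, an arrestin that uncouples receptors from G proteins, was at 3.29 and 6.69 FPKM. CREM, a factor of the CREB family, was at 2.36 and 4.17. Of 8 listed early targets of CREB, 3 were retained and 2 called. These were SIK1 and DUSP1, at 0.746 and 2.20 and at 1.05 and 4.98 FPKM. The other retained one, PER1, was at 0.856 and 1.57 FPKM (0.47), and none of the other 5, among them NR4A1 at 0.665 and 0.287 FPKM and FOS at 0.142 and 0.0709, reached FPKM 1. CREB1 itself was at 3.24 and 3.67 FPKM and was not called. GPSM2, ARRB1 and SIK1 had a PR site in or within 50 kb, and the sites nearest to F2RL1, CXCR4, CREM and DUSP1 lay farther away.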

How the data were processed

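RNA-seq of 1 R5020 and 1 EtOH library and PR ChIP-seq of 1 R5020 library of T47D cells were analysed. Input DNA, the control against which the authors called sites, was itself not used here. The authors trimmed 50-bp paired reads where needed, aligned them to hg19 with TopHat, kept unique alignments and deposited, per RefSeq transcript, the FPKM estimated by Cufflinks with its interval and status, where library total and transcript length are divided out. The coverage signal deposited by the authors served as depth and as an alternative. ChIP reads were aligned by the authors with Bowtie (1.1.2 in the submitters' processing notes), and MACS sites against input were deposited with a score, −10 log10 of the p-value, of at least 50. Deposited FPKM is not a read count, so no count test was used.

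FPKM was summed per symbol over 41138 transcripts joined by identifier. The study's 1.5-fold threshold was used without its p-value. It was applied to FPKM + 1, whereas the fold changes that the study lists are of FPKM itself. The fold threshold is therefore stricter here, most of all at low FPKM, whereas leaving out the p-value makes the call less strict. The members and lists were chosen with earlier results of these data known. Genes are named by this rule: every called member, the highest retained member of each role in EtOH, the 5 members with the highest-scoring site, members with a called transcript only, and called genes of the pathway list; members near a threshold, the less abundant relatives of a class and the genes sharing a locus were added after their values were seen. Roles were assigned by hand. Sites were tied to a gene by the nearest edge to the extent of its transcripts and annotated by midpoint with release 44 of GENCODE lifted to GRCh37, which is the same assembly as hg19. Of the members, 112 matched that annotation by symbol and chromosome, all with overlapping extents. Motifs were searched on both strands, and 3 sites on contigs outside the reference were left out of the search. Windows that overlap a UTR were not printed, and 1 gene of the pathway list is not reported here by name. With 1 library per condition no replicate could be left out and no p-value was computed. The steps were tested on simulated data. Software was Python 3.11.15, matplotlib 3.10.9, pysam 0.24.0, scipy 1.17.1, numpy 2.4.6 and pandas 2.3.3.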

Additional observations from a re-analysis of the deposited data

How the results depend on the processing

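No paired analysis was possible because each condition has 1 library, and no replicate could be left out. The counts of 6 higher and 3 lower members ranged from 4 to 8 and from 2 to 4 over the pseudocount of 0.1, the highest transcript, rescaling (factor 1.01), transcripts with an OK status, FPKM of 1 or more in both libraries, no filter, removal of the symbols that fit by spelling only and, both chosen after seeing the data, interval midpoints and scaled coverage. The share of all genes called higher ran from 3.78% without a filter to 9.91% with the pseudocount of 0.1, and that called lower from 2.06% to 7.14%. With that pseudocount, AKAP10, PRKAR2B and RGS19 were added to the calls. With FPKM of 5 or more in a library 4 of 26 members were higher (beside 9.70% of genes) and 1 lower (beside 4.32%), and at 2-fold 3 were higher (beside 3.43% of retained genes) and 0 lower (beside 1.31%). With the pseudocount of 0.1, PRKAR1B had a change of 3.48, beside 2.27 for PDE5A, but over a listed 0 its size is set by the pseudocount. With the highest transcript, AKAP13 (1.18) was above PDE5A (0.67). Among the further pathway genes 2 of 16 were higher with FPKM of 5 or more and 2 of 37 at 2-fold, beside the same 9.70% and 3.43%. The median change of the members was 0.037 with the highest transcript, -0.0099 after rescaling, 0.0077 with FPKM of 1 or more in both libraries, 0.069 with FPKM of 5 or more, 0.013 without the symbols that fit by spelling only, 0.0068 with interval midpoints and 0.012 with scaled coverage. All lie near 0. Of the 9 called members, GNB4 left the threshold after rescaling (0.57) and with interval midpoints (0.55), and RGS3 with the highest transcript (-0.50), because one transcript then stands for the gene. PRKAR1B stayed over the fold threshold with interval midpoints (0.88) and scaled coverage (0.99), but it fell under FPKM 1 and was not retained there. With FPKM of 1 or more in both libraries, PDE5A, PRKAR1B and GNAI1 were not retained. The count of 25 members with a PR site was 15 for sites in the locus (beside 22.5%), 10 for sites with a score of 100 or more (beside 18.1% of retained genes), 58 of all 114 members (beside 45.6% of all genes) and 7 for sites with ACANNNTGT (beside 12.7%, chosen after seeing the data). It was 20 (44.4%) within 10 kb, beside 33.0% of retained genes, and 30 (66.7%) within 100 kb, beside 64.3%. Within 50 kb of a start it was 21 (46.7%). No share of all retained genes was computed for that setting, so this count cannot be set against them. The depth of a value is known only through its coverage, and the spread between cultures is unknown.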

Other observations

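Among the further pathway genes, the receptor F2R, a thrombin receptor, was at 0.143 FPKM in EtOH and 0.746 in R5020, with coverage equal to 28.6 and 195 reads and its nearest PR site 205 kb away. It did not reach FPKM 1 in either library and was therefore not retained, and it was named after its values were seen. The receptor kinase ADRBK1, which phosphorylates active receptors, stood at 8.61 FPKM in EtOH and 6.11 in R5020, a change of -0.43 that stayed under the threshold, with a PR site in the gene.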
